A study of Mus musculus with 8 samples.

Results

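Quiescent neural stem cells (qNSCs) responded to bafilomycin A (BafA) differently at 24 h and at 4 h of treatment. A BafA effect is taken here as the log2 signal of BafA-treated qNSCs minus that of control qNSCs of the same time, and each gene was tested for the difference between its BafA effect at 24 h and its BafA effect at 4 h. All 8 arrays of the series enter that difference. Of the 23473 probes in the deposited table, the 20473 with a value on every array were tested, and they include 14679 genes with a name, each represented by 1 probe. The difference between the effects is the same number as the change with time in BafA-treated cells minus the change with time in control cells, so that every gene can be read in both ways.

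The cells were mouse NSCs, by the study's methods a line that had been dissociated from the ventral telencephalon of ICR embryos and passaged in culture. They were held in BMP-containing quiescence medium, and this medium was then renewed with 20 nM BafA or without BafA. The groups are BafA at 24 h, control at 24 h, BafA at 4 h and control at 4 h, with 2 arrays each. BMP and the change of medium are common to all 4 groups, and all cells come from 1 line. It is not stated whether the 2 arrays of a group stem from separate cultures, so the spread behind the p-values is that between these arrays and may be purely technical.

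BafA blocks the V-ATPase, the proton pump that acidifies lysosomes. Lysosomes break down proteins and lipids, release amino acids, cholesterol and iron to the cytosol, and degrade growth factor receptors that arrive from the cell surface. Quiescent NSCs are out of the cell cycle, are rich in lysosomes and share many transcripts with astrocytes.

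Between 21652 and 22077 probes had a value on each array, and the median spot was 1.57 to 1.72 times as bright as the blank spots. The 2 arrays of a group correlated at 0.9925 to 0.9957 over probes (log2 signal). The first control array of each time has other gain slopes in the head of its scanner output than the remaining 6 arrays, which was read as another scan setting. Counts were therefore also made with the 6 arrays of 1 setting. This leaves 1 array in each control group, so calls lost there can also come from the smaller number of arrays.

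The BafA effect differed between the times for 3444 of 20473 probes (limma, adjusted p under 0.05), which is 16.8% of the probes tested. It was higher at 24 h for 1733 probes (8.46%) and lower for 1711 (8.36%). Among the 14679 named genes the effect differed for 2652, or 18.1%: it was higher at 24 h than at 4 h for 1295 (8.82%) and lower for 1357 (9.24%). The difference was at least 2-fold for 1297 of these genes, at least 4-fold for 274 and at least 8-fold for 77. For all 2652 genes the 4 differences between single BafA and control arrays at 24 h lay apart from the 4 differences at 4 h, as they did for 43.2% of all named genes tested. At 24 h 4825 named genes differed between BafA-treated and control cells (32.9%; 17.1% higher and 15.8% lower with BafA), against 285 at 4 h (1.94%; 1.23% higher and 0.708% lower). Accordingly, 2430 of the 2652 genes were called at 24 h and not at 4 h, 68 were called at both times with a larger effect at 24 h, 4 with a smaller effect at 24 h and 13 with opposite signs, 43 were called at 4 h and not at 24 h, and 94 at neither time.

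The genes were then sorted by where the movement lay. Signals changed between 24 h and 4 h for 44.1% of named genes in BafA-treated cells (24.4% higher and 19.8% lower at 24 h) and for 39.0% in control cells (21.7% higher and 17.2% lower). Of the 2652 genes whose BafA effect changed, 1017 moved with time in BafA-treated cells alone, 578 moved in control cells alone, 323 moved in opposite directions in BafA-treated and control cells, 695 moved in the same direction by different amounts, and 39 did not pass in either. Control cells thus moved without a called movement in BafA-treated cells for 21.8% of the genes, and the share was larger among genes whose effect was lower at 24 h (345 of 1357) than among those whose effect was higher (233 of 1295), a split that was not tested. By size, the movement in BafA-treated cells was at least 2 times that in control cells for 1358 genes, and the reverse held for 630. These classes are a description, because the same 8 arrays enter the difference and the movements that make it up.

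**Figure D1:**
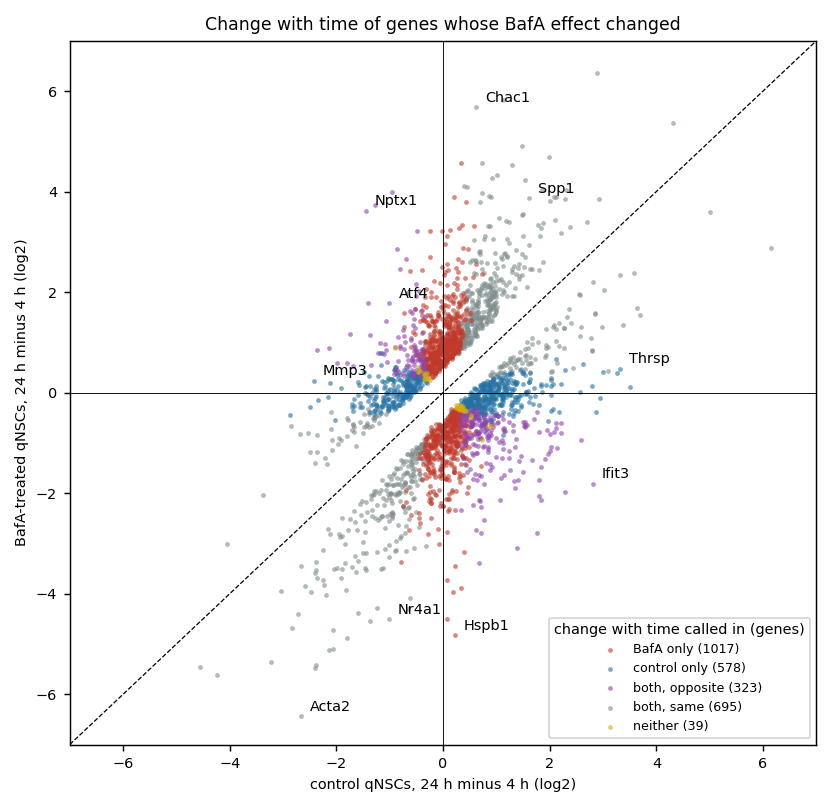
Change between 24 h and 4 h in BafA-treated qNSCs (vertical axis, log2) and in control qNSCs (horizontal axis, log2), 1 point for each of the 2652 named genes whose BafA effect changed, coloured by the group in which the change with time was called. The vertical distance of a point from the dashed line of equal change is the difference between the BafA effects. Red points (1017 genes) lie along the vertical axis and blue points (578 genes) along the horizontal axis.

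Several of the strongest increases belong to genes that hardly moved in control cells. Spry1, an inhibitor of receptor tyrosine kinase signaling to ERK, had signals of 108 and 110.5 in BafA-treated cells and 5 and 5.5 in control cells at 24 h. At 4 h its signals were 7.3 and 8.6 in BafA-treated cells and 3.4 and 4.4 in control cells. The BafA 24 h arrays stood apart from the other 6 arrays, and the BafA effect was 3.35 higher at 24 h on the log2 scale (SE 0.23, adjusted p = 3.42e-06), or 1.96 with a pseudocount of 25 added to the signals. Kdelr3, a receptor that returns proteins to the endoplasmic reticulum (ER), had 577.8 and 673.6 with BafA at 24 h and 49 to 71.1 on the other 6 arrays (difference 3.22). Gpx3, a secreted glutathione peroxidase, and Slc16a3, a lactate exporter, gave differences of 3.10 and 2.99. Among the genes that moved in BafA-treated cells alone, 562 had a higher and 455 a lower effect at 24 h.

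The largest decrease of that kind was that of Hspb1, a small heat shock protein that binds actin filaments and unfolded proteins. Its signal was 268.9 and 281.9 in BafA-treated cells and 4704.5 and 8333.3 in control cells at 24 h, and 7942.7 and 7666.4 in BafA-treated cells and 5792.7 and 4964.6 in control cells at 4 h. It was thus bright in 3 groups and low in BafA-treated cells of 24 h alone, with a difference of -5.05 between the effects (SE 0.29, adjusted p = 9.11e-07). Mmp11, a secreted matrix protease, had 53.6 and 39.5 with BafA at 24 h and 578.7 to 1193.1 on the other arrays. Its difference was -4.57, and those of Slc39a12, a zinc importer of astrocytes, Cd59a, which protects membranes from complement, and Zfp91, a zinc finger protein, were -4.23, -3.80 and -3.66.

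Other large increases came from genes that moved in both kinds of cells, in opposite directions or by unequal amounts. Chac1, an enzyme that degrades glutathione, had 625.1 and 599.8 in BafA-treated cells and 15.4 and 19.2 in control cells at 24 h. At 4 h it had 10.3 and 13.8 in BafA-treated cells and 10.8 and 11.6 in control cells, so that the groups overlapped at that time. The BafA effect was 5.15 at 24 h and 0.09 at 4 h on the log2 scale, a difference of 5.06 (SE 0.22, adjusted p = 2.73e-07). Nptx1, a neuronal pentraxin, differed as much (5.06, SE 0.22), with 1290.7 and 1177.5 in BafA-treated cells and 21.3 and 28.8 in control cells at 24 h. At 4 h Nptx1 had 102.8 and 98.1 in BafA-treated cells and 72.9 and 62.3 in control cells, so it was higher at 24 h than at 4 h with BafA and lower without it. Tm4sf1, a membrane protein of the tetraspanin-like L6 family (5.0), and Tes, a focal adhesion protein (4.96), followed the pattern of Nptx1. Tnfrsf22, a decoy receptor for TRAIL, and the vascular growth factor Angpt2 had differences of 3.71 and 3.47, and their signals were higher at 24 h in BafA-treated cells and also, by less, in control cells. The uncharacterised gene 1600014C23Rik gave 4.70. With a pseudocount of 25 the differences of Tes and 1600014C23Rik were 2.65 and 2.45 and that of Tnfrsf22 was 2.14. The signals of Tes lay between 4.1 and 11 outside BafA-treated cells of 24 h.

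Genes that moved in opposite directions numbered 108 with a higher and 215 with a lower effect at 24 h. Enpp2, the enzyme that makes lysophosphatidic acid, had 46.2 and 44.8 in BafA-treated cells and 1094.9 and 1019.1 in control cells at 24 h. At 4 h Enpp2 had 173 and 184.5 in BafA-treated cells and 229 and 205.3 in control cells. Its signal was lower at 24 h than at 4 h with BafA (log2 change -1.97) and higher without BafA (2.28), and both movements add up to a difference of -4.26 (SE 0.16, adjusted p = 2.73e-07). Mmd2, a membrane protein of the progestin and adipoQ receptor family (-4.47), Ntsr2, a neurotensin receptor of astrocytes (-4.07), Vit, a matrix protein (-3.97), and Susd2 (-3.54) behaved in the same way. Sting1, a sensor adaptor for cytosolic DNA, was the reverse case, with 138.3 and 148.2 in BafA-treated cells and 9.8 and 19.4 in control cells at 24 h, against 21.7 to 23.2 in all 4 arrays of 4 h. With a pseudocount of 25 the differences of Ntsr2, Vit and Susd2 were -2.61, -2.42 and -1.98, and that of Sting1 was 2.09 in place of 3.36.

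A further class owed its difference to control cells. Derl3, a component of ER-associated degradation, had 13.2 and 15.9 in BafA-treated cells and 111.1 and 152.1 in control cells at 24 h, and 13.2 and 13.8 in BafA-treated cells and 11.1 and 11.8 in control cells at 4 h. BafA-treated cells of both times and control cells of 4 h were alike in level, and control cells of 24 h stood apart. The difference was -3.40 (SE 0.23, adjusted p = 2.75e-06), with a change with time of 0.10 in BafA-treated cells and 3.51 in control cells, and it was -2.05 with a pseudocount of 25. Thrsp, a lipogenic protein (-2.84), Scrg1 (-2.58), Usp18, a protease that removes ISG15 (-2.55), and Aspa, which cleaves N-acetylaspartate (-2.38), had the same layout. In the opposite direction, Cd24a, a surface glycoprotein, had 1175 and 1553.3 with BafA and 229.9 and 370.3 without it at 24 h, against 1502.8 to 1783.5 on the 4 arrays of 4 h. Its effect was 2.22 higher at 24 h (SE 0.28, adjusted p = 0.00028), while its signal in BafA-treated cells changed by -0.28, which did not pass the test. Slco3a1, an organic anion transporter (1.72), and Rasl11a (1.55) were of this kind as well, with 1.14 and 1.02 within the 6 arrays of 1 scan setting. Cyb5b (1.496) lost its call within the 6 arrays of 1 scan setting, and Rgs17 (1.48) without control 4 h replicate 1 or BafA 24 h replicate 2.

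**Figure D2:**
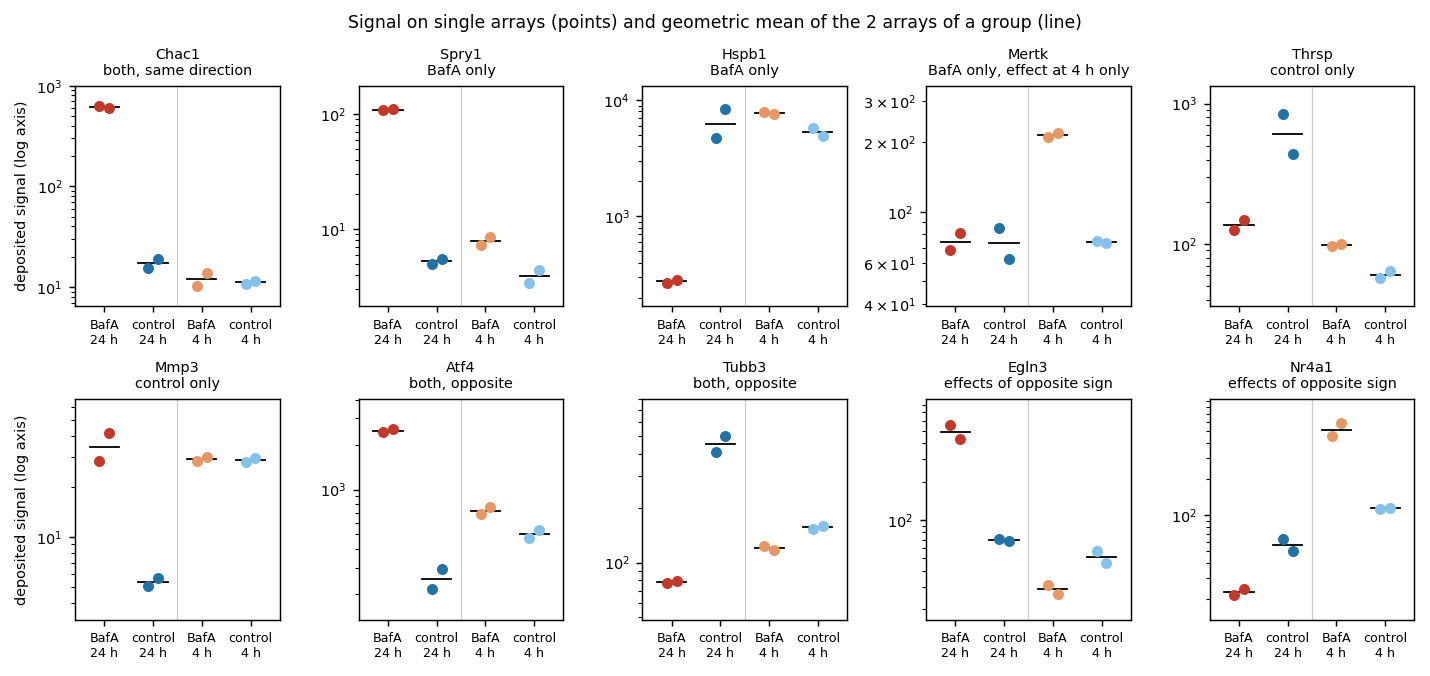
Deposited signal (log axis) of 10 genes on single arrays, with BafA and control at 24 h left of the grey line and BafA and control at 4 h right of it in each panel; points are arrays and horizontal lines are geometric means of 2 arrays. In the Hspb1 panel the BafA 24 h points lie below all others, in the Thrsp and Mmp3 panels the control 24 h points stand apart, and in the Mertk panel the BafA 4 h points do.

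A small set of genes had a called effect at 4 h that was smaller, absent or reversed at 24 h. Nr4a1, an immediate-early nuclear receptor, had 21.4 and 24.1 in BafA-treated cells and 63.3 and 50.1 in control cells at 24 h, but 460.5 and 583.4 in BafA-treated cells and 113.5 and 114.9 in control cells at 4 h. BafA-treated cells were lower than control cells at 24 h and higher at 4 h, with log2 effects of -1.31 and 2.18 and a difference of -3.49 (SE 0.22, adjusted p = 1.6e-06). Polm, a DNA polymerase of end joining (-3.10), Fam102a (-2.67) and Fbxo32, a muscle atrophy ubiquitin ligase that is a target of FOXO factors (-2.59), turned in the same direction. Egln3, an oxygen-sensing prolyl hydroxylase, turned the other way, with 553.5 and 429.8 in BafA-treated cells and 71.2 and 68.5 in control cells at 24 h, against 30.9 and 26.5 in BafA-treated cells and 57.3 and 45.7 in control cells at 4 h. Its effects were 2.80 at 24 h and -0.84 at 4 h. Of the 13 genes whose effects passed at both times with opposite signs, 2 had a higher and 11 a lower effect at 24 h.

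Mertk, a receptor tyrosine kinase that takes up apoptotic cells, was raised at 4 h alone. Its signals were 68 and 81.3 with BafA and 85.2 and 62.4 without it at 24 h, where the groups overlapped, and 209.9 and 218.9 with BafA and 74.4 and 73.6 without it at 4 h. The log2 effects were 0.03 and 1.53, and the difference was -1.51 (SE 0.22, adjusted p = 0.000633). Agfg2 (-1.12) and Usp53 (-1.02) were also higher with BafA at 4 h alone, and Klhl25, an adaptor of a ubiquitin ligase, was lower with BafA at 4 h alone (effects of 0.15 at 24 h and -1.10 at 4 h). The mitochondrial carrier Slc25a33 (-0.996) lost its call without control 4 h replicate 1 or 2, BafA 4 h replicate 2 or BafA 24 h replicate 2.

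**Figure D3:**
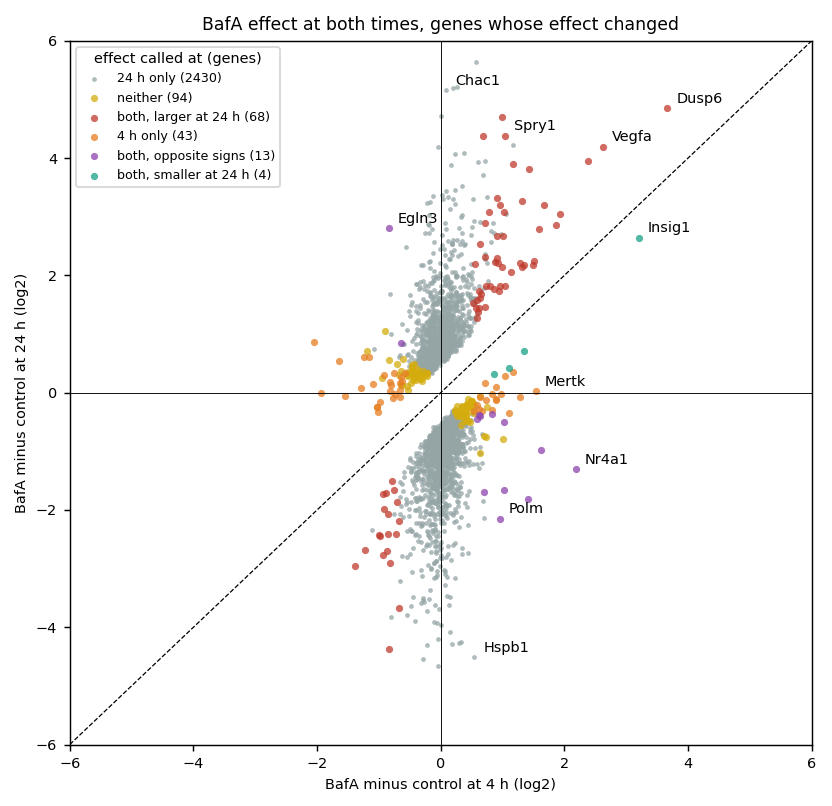
BafA effect at 24 h (vertical axis, log2) and at 4 h (horizontal axis, log2) for the 2652 named genes whose effect changed, coloured by the times at which the effect itself was called. Most points (2430) form a vertical band near 0 at 4 h, and 68 genes with larger effects of the same sign at 24 h lie to its left or right. The 13 genes with effects of opposite sign, among them Nr4a1 and Egln3, lie in the other 2 quadrants.

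Groups of genes were read against these shares. The 27 lists of pathways and the 6 lists of cell type markers were chosen with earlier results of these data known, and their counts are a description. Without eBayes, the step that shares the estimate of spread over probes, the lists held fewer calls. Then 13 glycolysis and hypoxia targets, 10 ATF4 genes, 3 genes of cholesterol synthesis, 3 ERK feedback genes and 0 antioxidant genes had a higher effect. The median difference over all named genes was 0.002 on the log2 scale. Of the 283 genes in these lists or named by rule whose effect changed, 179 kept the call without any 1 array, and 104 lost it without at least 1 array. The genes named from here on as higher or lower belong to the 179 unless stated. The size of a difference depended on how low signals were treated: with a pseudocount of 25 it was over 1.5 times smaller for 72 of the 283 genes, with normexp background correction of the scanner signals for 73, and without at least 1 array for 8. Within the 6 arrays of 1 scan setting, the calls of Hbegf, Fgfr3, Psat1, Mt2, Rpl4 and Rpl8 were lost as well.

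**Figure D4:**
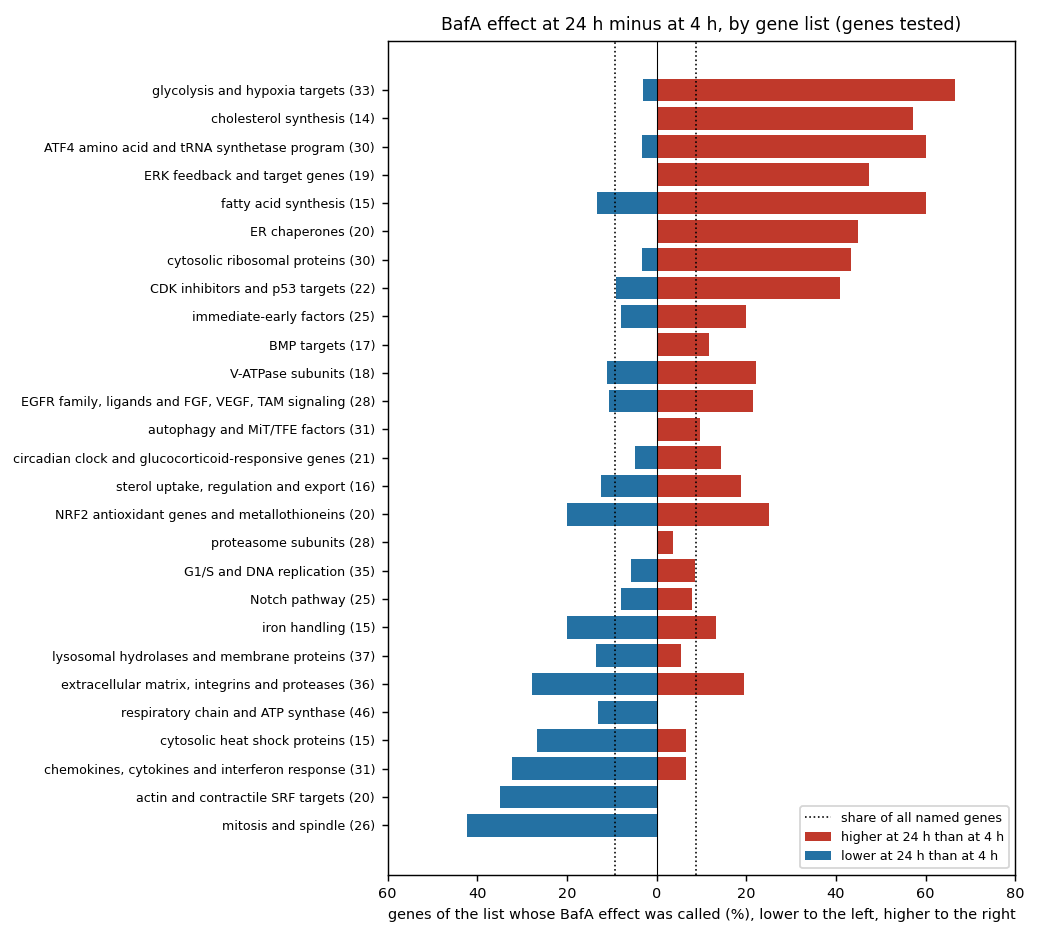
Share of the tested genes of each list (percent, number tested in brackets) whose BafA effect was higher (red, to the right) or lower (blue, to the left) at 24 h than at 4 h. Dotted lines mark the shares of all named genes, 8.82% higher and 9.24% lower. For glycolysis and hypoxia targets the red bar stands for 22 of 33 genes, and for mitosis and spindle genes the blue bar stands for 11 of 26, a count that was 3 to 9 with 1 array left out.

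Genes of glucose breakdown and of the hypoxia response had many higher effects at 24 h. Hypoxia-inducible factors raise such genes when oxygen or the prolyl hydroxylases that sense it fall short. Of 33 genes tested, 22 had a higher and 1 a lower BafA effect at 24 h than at 4 h, with a median difference of 1.14, and at 4 h the effect was called for 3 of them (2 higher, 1 lower). In 15 of the 23 the signal changed in the same direction in both kinds of cells. Pdk1, which holds pyruvate back from mitochondria, had 216 and 227.3 in BafA-treated cells and 29.4 and 30.8 in control cells at 24 h, against 15.9 to 18.7 on the 4 arrays of 4 h. Its difference was 3.09 (SE 0.16, adjusted p = 5.15e-07). Hk2, which phosphorylates glucose, had 311.6 and 324.7 with BafA and 9.8 and 29.9 without it at 24 h, and 60.2 and 58 with BafA and 28 and 24.7 without it at 4 h (difference 3.05, SE 0.50). Ero1a, an ER oxidase (2.52), P4ha2, a collagen prolyl hydroxylase (2.49, or 0.48 with a pseudocount of 25), Slc2a1, the glucose transporter GLUT1 (1.75), and Pfkl, a phosphofructokinase (1.75), followed. The bright enzymes further down the pathway differed by less, with 1.34 for Tpi1, 1.29 for Pkm, 1.28 for Pgk1, 1.14 for Ldha and 0.99 for Pgam1. The exception was Aldoc, the aldolase of astrocytes, with 9104.7 and 9302.8 in BafA-treated cells and 19771.8 and 18663.5 in control cells at 24 h and a difference of -1.03. In the alternatives with eBayes, 19 to 24 members had a higher and 1 or 2 a lower effect.

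The 300 bases around the start of Egln3 and Slc16a3, which the list holds among its largest differences, are shown because their promoters contain the core of the element that hypoxia-inducible factors bind. The sequences are from RefSeq (GRCm38.p6), 5′ to 3′ on the gene's strand, and run over 250 bases before the start and 50 after it. Capitals mark ACGTG on either strand. Egln3 lies on the minus strand at chr12:54203825-54204124 and Slc16a3 on the plus strand at chr11:120948817-120949116.
Egln3: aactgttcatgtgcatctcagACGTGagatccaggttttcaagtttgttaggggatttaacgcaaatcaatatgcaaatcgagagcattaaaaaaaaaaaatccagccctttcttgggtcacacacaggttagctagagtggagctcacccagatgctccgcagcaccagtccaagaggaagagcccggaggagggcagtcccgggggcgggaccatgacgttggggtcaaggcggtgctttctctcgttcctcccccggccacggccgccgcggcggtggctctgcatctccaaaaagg
Slc16a3: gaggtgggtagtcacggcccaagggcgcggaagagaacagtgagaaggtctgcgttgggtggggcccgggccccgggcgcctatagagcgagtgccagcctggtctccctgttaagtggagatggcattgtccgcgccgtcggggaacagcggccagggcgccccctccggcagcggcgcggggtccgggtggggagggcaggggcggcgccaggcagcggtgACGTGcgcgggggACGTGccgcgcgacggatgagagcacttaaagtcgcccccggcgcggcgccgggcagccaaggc
The motif begins 229 bases before the start of Egln3, and 27 and 14 bases before that of Slc16a3. Of the 29 tested list members with a promoter in the table, 21 hold ACGTG, against 21.8% of the 27025 genes in the table. It is present in 15 of 20 members whose effect was higher at 24 h and in 6 of the 9 other members. The list was chosen as hypoxia and glycolysis genes, and the promoter table is not restricted to genes tested. The share over all genes therefore does not bear on the BafA effect. A match of 5 bases is a description and not a bound site.

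The ATF4 program, which is translated and transcribed when amino acids run short or the ER is under load, also had many higher effects at 24 h. Of 30 genes tested, 18 had a higher effect at 24 h and 1 a lower one, with a median of 0.98, and Ddit3 was the only member called at 4 h. Atf4 itself had 2441 and 2524 in BafA-treated cells and 214.9 and 291.7 in control cells at 24 h, and 686.6 and 761.2 in BafA-treated cells and 472.4 and 535.5 in control cells at 4 h. The signal was higher at 24 h with BafA (log2 change 1.78) and lower at 24 h without it (-1.01), a difference of 2.79 (adjusted p = 5.9e-06). The mitochondrial folate enzyme Mthfd2 likewise moved apart, with 514.2 and 496.4 in BafA-treated cells and 27.4 and 32.4 in control cells at 24 h, and a difference of 3.71. Nupr1, a small stress protein, had 182.2 and 138.3 with BafA and 9.8 and 21.7 without it at 24 h, and 6.3 to 10.7 on the 4 arrays of 4 h (3.36, or 2.16 with a pseudocount of 25). Trib3, a pseudokinase, differed by 2.39, the amino acid transporters Slc7a3, Slc7a11 and Slc1a5 by 1.74, 1.61 and 1.22, and the tRNA synthetases Cars and Gars by 1.84 and 1.02. With a pseudocount of 25 the 3 transporters differed by 0.33, 0.46 and 0.74. Psat1, an enzyme of serine synthesis, was the member with a lower effect (-0.70), and the amino acid transporter genes Slc7a5 and Slc3a2 had differences of -0.58 and -0.52 that did not pass the test.

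The promoters of Chac1 and Nupr1 are shown because they hold the element that ATF4 binds together with a C/EBP partner. Capitals mark TGATGNAA on either strand, where N is any base. The sequences are again from RefSeq (GRCm38.p6) over the same 300 bases, with Chac1 on the plus strand at chr2:119350992-119351291 and Nupr1 on the minus strand at chr7:126625421-126625720.
Chac1: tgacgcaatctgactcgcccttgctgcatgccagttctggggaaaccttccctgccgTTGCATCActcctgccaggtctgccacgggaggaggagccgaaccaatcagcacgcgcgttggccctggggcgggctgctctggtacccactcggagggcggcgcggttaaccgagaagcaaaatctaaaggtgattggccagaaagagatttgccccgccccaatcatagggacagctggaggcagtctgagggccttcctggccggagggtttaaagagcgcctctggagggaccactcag
Nupr1: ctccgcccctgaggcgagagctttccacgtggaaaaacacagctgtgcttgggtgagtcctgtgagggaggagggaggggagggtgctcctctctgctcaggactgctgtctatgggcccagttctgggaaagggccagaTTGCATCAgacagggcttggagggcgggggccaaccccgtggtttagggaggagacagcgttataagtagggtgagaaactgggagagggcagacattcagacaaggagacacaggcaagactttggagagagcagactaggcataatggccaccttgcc
Both matches lie on the strand opposite to the gene and begin 193 and 110 bases before the start. Of the 24 tested members of the ATF4 list with a promoter in the table, 11 hold the motif, against 4.51% of all genes in the table. They are 8 of 14 members whose effect was higher at 24 h and 3 of the other 10. The list was chosen as the ATF4 program, and the promoter table is not restricted to genes tested. The share over all genes therefore does not bear on the BafA effect, and a match is not a bound site.

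In a list of 20 chaperones and degradation factors of the ER, 9 had a higher effect at 24 h and 0 a lower one, with a median of 0.60. Derl3, described above with a lower effect (-3.40), was not on this list. The calls of Edem1, Hsp90b1, Manf and Syvn1 were each lost without at least 1 array. None of the listed genes was called at 4 h. Hspa5, the main ER chaperone BiP, had 5972 and 6285 in BafA-treated cells and 3656 and 4472 in control cells at 24 h, and 3818 and 3725 in BafA-treated cells and 5216 and 5266 in control cells at 4 h. It was brighter with BafA at 24 h and dimmer with BafA at 4 h, although the effect at 4 h (-0.47) did not pass the test, and the difference was 1.07 (adjusted p = 0.00074). Sdf2l1, Creld2 and Herpud1, all targets of the unfolded protein response, differed by 1.11, 1.04 and 0.95. Within the 6 arrays of 1 scan setting, 5 members had a higher effect.

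Of 14 genes of cholesterol synthesis tested, BafA-treated cells were higher than control cells for 9 at 4 h and for 14 at 24 h, and the effect was higher at 24 h than at 4 h for 8 and lower for 0 (median 0.73). Idi1, an isomerase of the isoprenoid branch, had 2497 and 2843 with BafA and 378.2 and 354.5 without it at 24 h, and 650.8 and 628.8 with BafA and 175.7 and 176.9 without it at 4 h. The log2 effects of 2.86 and 1.86 differ by 1.004 (adjusted p = 0.0012). Cyp51 (1.20), Nsdhl (0.79) and Sc5d (0.93), enzymes after lanosterol, also passed at both times and were larger at 24 h. For Mvk, mevalonate kinase (1.17), and Tm7sf2, a sterol reductase (1.73), the effect was called at 24 h alone. Msmo1, Fdft1, Mvd and Hsd17b7 were called at both times with differences of -0.08, 0.28, 0.36 and -0.13 that did not pass the test. Signals of 13 of the 14 genes were also higher at 24 h than at 4 h in control cells.

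Among 16 genes of sterol uptake, regulation and export, 3 had a higher and 2 a lower effect, and each call but that of Soat1 was lost without at least 1 array. Insig1, which retains the sterol sensor SCAP in the ER, is 1 of the 4 genes whose effect was called at both times and was smaller at 24 h. It had 801.1 and 918.8 with BafA and 137.9 and 136.6 without it at 24 h, and 546.9 and 520.8 with BafA and 57.8 and 57.9 without it at 4 h. The effects of 2.64 and 3.21 differ by -0.56, and this call was lost under 11 of 17 alternatives, among them 6 that each leave out 1 array. Soat1, which esterifies cholesterol for storage, moved apart, with 173.6 and 196.4 in BafA-treated cells and 367.8 and 360.3 in control cells at 24 h, against 238 to 284.9 on the 4 arrays of 4 h (difference -1.12, adjusted p = 0.00094).

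Fatty acid synthesis had 9 higher and 2 lower effects in 15 genes, with a median of 0.73, but 1 higher and 1 lower without eBayes. The elongase Elovl6 had 652.5 and 451.3 in BafA-treated cells and 71.9 and 44.5 in control cells at 24 h, and 101.8 and 82.2 in BafA-treated cells and 40.3 and 33.4 in control cells at 4 h (difference 1.94, adjusted p = 0.0016). Acly and Acss2, which supply acetyl-CoA, differed by 1.28 and 1.27, and Acaca, which makes malonyl-CoA, by 1.17. Elovl2, which elongates polyunsaturated fatty acids, went against them, with 10.1 and 9.9 in BafA-treated cells and 46.6 and 39.4 in control cells at 24 h and 31.6 to 36.4 at 4 h (-1.99, adjusted p = 2.8e-05, or -0.89 with a pseudocount of 25). The other member with a lower effect was Thrsp, described above, which changed in control cells.

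Feedback genes of ERK signaling, which are induced by growth factors and restrain the pathway, had 9 higher and 0 lower effects in 19 genes (median 0.69), but 5 higher without BafA 4 h replicate 1 or without BafA 24 h replicate 2. The calls of Dusp7, Etv1, Rasa1 and Spred2 were each lost without at least 1 array. Dusp6, a phosphatase specific for ERK, had 767.7 and 769.4 with BafA and 31.5 and 22.5 without it at 24 h, and 136 and 131.1 with BafA and 12.1 and 9.2 without it at 4 h. Its effects of 4.85 and 3.66 were both called and differed by 1.19 (adjusted p = 0.0055). Etv4, a transcription factor downstream of ERK, differed by 1.85 and Spred3, an inhibitor of RAS, by 1.59, both with an effect at 24 h alone. Spred1, of the same family, had 49.8 and 63 with BafA and 16.5 and 20.8 without it at 24 h, and 54.6 to 63.7 at 4 h, so that its difference of 1.54 (0.86 with a pseudocount of 25) lay in control cells. Dusp1 was called at both times with effects of 3.37 and 3.23, and their difference of 0.13 did not pass the test.

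Immediate-early factors, of which 10 of 25 were higher and 1 lower with BafA at 4 h, had 5 higher and 2 lower effects at 24 h than at 4 h and a median of 0.13. Egr1 had 145.2 and 129.5 in BafA-treated cells and 21.7 and 13 in control cells at 24 h, and 143.3 and 115.2 in BafA-treated cells and 17.8 and 10 in control cells at 4 h. The difference of -0.24 (adjusted p = 0.75) was within the spread of the arrays. Jun, Fosl1 and Myc had differences of -0.01, 0.36 and -0.38 that did not pass either. Those that did were Ier3 (2.04), Btg2 (1.61), Maff (1.53), Klf4 (1.24), Ier5 (-0.96), Nr4a1 and, with a call that was lost without 1 array, Ccn2 (0.69). The call of Ier3 was lost within the 6 arrays of 1 scan setting, and Maff and Btg2 differed by 0.61 and 1.0 with a pseudocount of 25.

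Among 28 receptors and ligands of the EGFR, FGF, VEGF, TAM and related families, 6 had a higher and 3 a lower effect at 24 h. Vegfa, the main vascular growth factor, had 163.2 and 182.7 with BafA and 8.3 and 10.7 without it at 24 h, and 40.9 and 43.3 with BafA and 6.4 and 7.3 without it at 4 h. The effects of 4.20 and 2.62 differ by 1.57 (adjusted p = 0.00037). Its relative Vegfc, which acts on lymphatic vessels, was called at 24 h alone (difference 2.05), and the ligand genes Hbegf and Ereg of the EGFR differed by 0.94 and 1.72. The size for Ereg was not settled, at 0.35 with a pseudocount of 25, and its signals without BafA (1.5 to 2.4) lay near those of negative control spots of type 1, which averaged 2.06 to 3.37 over the 8 arrays. The FGF receptor genes split, with 0.997 for Fgfr1, -1.07 for Fgfr2 and -0.96 for Fgfr3 (-0.24 with a pseudocount of 25). Egfr had 147.2 and 158.9 in BafA-treated cells and 136.7 and 190.7 in control cells at 24 h, against 195.3 to 234 at 4 h, and its difference of -0.17 did not pass the test.

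In the Notch pathway, 2 of 25 genes had a higher and 2 a lower effect at 24 h, shares near those of all genes. Jag1, a Notch ligand, had 88.6 and 89.1 in BafA-treated cells and 5.2 and 6.9 in control cells at 24 h, and 10 and 8 in BafA-treated cells and 5.3 and 3 in control cells at 4 h, with effects of 3.89 and 1.17 and a difference of 2.73 (adjusted p = 0.00024, or 1.65 with a pseudocount of 25). Lfng, a glycosyltransferase that modifies Notch, is the other gene besides Egln3 whose effect turned upwards, with log2 effects of 0.84 at 24 h and -0.65 at 4 h. Its difference of 1.49 was 0.87 with a pseudocount of 25. Dtx1 (-1.56) changed in control cells alone, and Notch1, Hes1 and Hes5 had differences of -0.28, 0.49 and -0.10 that did not pass. Of 17 BMP targets, Bambi, a decoy receptor, had a higher effect at 24 h (1.28), and so did Smad6 (0.68), with a call that was lost without 1 array in 5 cases. The share of BMP targets called was 11.8%, against 18.1% of all named genes. Id1, Id2, Id3 and Id4 gave 0.65, 0.23, -0.09 and -0.34, none of which passed.

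Genes of mitosis and the spindle had 11 lower and 0 higher effects of 26, with a median of -0.50. Nusap1, which bundles spindle microtubules, had 29.9 and 30.7 in BafA-treated cells and 120.2 and 100.4 in control cells at 24 h, against 44.2 to 57.7 on the 4 arrays of 4 h. It was lower at 24 h than at 4 h with BafA (-0.72) and higher without it (1.12), a difference of -1.84 (adjusted p = 0.00014). Ccna2, cyclin A, had 6.5 and 7.2 in BafA-treated cells and 20.3 and 19.5 in control cells at 24 h, and 10.5 to 12.7 at 4 h (-1.52), and Aurka, a mitotic kinase, differed by -1.07, but with a pseudocount of 25 these 2 genes differed by -0.49 and -0.50. In 5 of the 11 genes only control cells moved, with higher signals at 24 h, and Mki67 and Top2a had differences of -0.35 and -0.42 that did not pass the test. Nusap1, Ccna2 and Aurka kept their calls without any 1 array, the other 8 did not. With 1 array left out, 3 (without BafA 4 h replicate 2) to 9 (without control 24 h replicate 2) members were lower, and within the 6 arrays of 1 scan setting 5 members had a lower and 1 a higher effect.

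Genes of G1/S and replication had 3 higher (5 without control 24 h replicate 1) and 2 lower effects of 35 and a median of 0.06. The share called was 14.3%, against 18.1% of all named genes. Ccnd2, a D cyclin, had 6957 and 7009 with BafA and 1344 and 1648 without it at 24 h, and 1546 and 1635 with BafA and 1129 and 666.6 without it at 4 h (difference 1.36, adjusted p = 0.0059). Its difference was 0.83 within the 6 arrays of 1 scan setting and 0.98 without control 4 h replicate 1. Ccne1, cyclin E, went down (-1.23, or -0.54 with a pseudocount of 25), and Pola1, a subunit of the replicative polymerase, up (1.22). Inhibitors of cyclin-dependent kinases and targets of p53 had 9 higher and 2 lower effects of 22, and 0 lower without control 4 h replicate 2 or without BafA 4 h replicate 1. Cdkn1a, the inhibitor p21, had 1839 and 1832 in BafA-treated cells and 189.2 and 283 in control cells at 24 h, and 476.4 and 448.1 in BafA-treated cells and 400.2 and 339.8 in control cells at 4 h. The difference of 2.66 (adjusted p = 2.1e-05) combines a higher signal at 24 h with BafA and a lower one without it. Pmaip1, a death inducer of the BCL2 family (2.35), Ccng1, cyclin G (2.10), and Trp53inp1 (1.23) were also higher.

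Actin and contractile genes that respond to SRF had 7 lower and 0 higher effects of 20, but 4 lower without control 4 h replicate 2, BafA 24 h replicate 1 or BafA 24 h replicate 2. Acta2, smooth muscle actin, had 32.5 and 35.1 in BafA-treated cells and 429.9 and 406.1 in control cells at 24 h, and 2738.8 and 3146.4 in BafA-treated cells and 3004.5 and 2358.6 in control cells at 4 h. Its signal was lower at 24 h than at 4 h in both, by more with BafA (log2 changes of -6.44 and -2.67), which gives -3.77 (SE 0.19, adjusted p = 4.89e-07). Cnn2, a calponin, differed by -1.43, Tagln, transgelin, by -1.08 (-0.33 with a pseudocount of 25) and Actb, the common cytoplasmic actin, by -1.03.

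Matrix, integrin and protease genes went both ways, with 7 higher (4 without BafA 4 h replicate 1) and 10 lower effects of 36. In 7 of the 17 only control cells moved with time, in 9 both kinds of cells moved in the same direction, and in 0 only BafA-treated cells moved. Mmp3, stromelysin, had 28.6 and 41.9 with BafA and 5.1 and 5.7 without it at 24 h, against 28 to 30.2 at 4 h, so that its difference of 2.67 (0.97 with a pseudocount of 25) was that of control cells. Itgb5 (1.86) and Thbs1 (-2.99), which encode an integrin and thrombospondin, fell with time in both kinds of cells by unequal amounts, and Spp1, osteopontin (2.26), and Fn1, fibronectin (1.33), were higher at 24 h in both. Col1a1 (-1.55), Col6a1 (-1.61) and Itga2 (-1.71) were higher at 24 h in control cells alone. Thbs1 had 1.3 and 1.2 with BafA at 24 h, below the negative control spots of type 1 on those arrays (2.89 and 3.37), and with a pseudocount of 25 its difference was -0.53, so that its size was not settled. With the same pseudocount Col1a1 and Itga2 differed by -0.80 and -0.65.

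Chemokine, cytokine and interferon genes had 2 higher (5 without control 24 h replicate 2) and 10 lower effects of 31. Ifit3, an interferon-induced protein, had 1.8 and 1.6 in BafA-treated cells and 45.5 and 40.3 in control cells at 24 h, and 5.4 to 6.9 on the 4 arrays of 4 h (difference -4.62, adjusted p = 6.6e-07). Its signals with BafA at 24 h lay below those of negative control spots of type 1 on the same arrays (2.89 and 3.37), and the size was not settled, at -1.34 with a pseudocount of 25. Irf7 and Stat2, transcription factors of that response, were higher at 24 h in control cells alone and differed by -1.70 and -1.12, whereas Vcam1, an adhesion molecule of quiescent stem cells, was lower at 24 h in BafA-treated cells alone. Vcam1 had 101.4 and 106.8 in BafA-treated cells and 689 and 663.6 in control cells at 24 h, against 664.9 to 790.9 at 4 h (-2.62). The immunoproteasome genes Psmb8 and Psmb9 differed by -2.44 and -2.79 (-1.54 and -1.14 with a pseudocount of 25, where Irf7 differed by -0.92), and Ptgs2, which makes prostaglandins, was higher by 3.85.

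Among cytosolic heat shock proteins, 4 of 15 had a lower and 1 a higher effect at 24 h. Hspb1 and Cryab kept the call without any 1 array, while Dnajb4, Hspb8 and the higher Chordc1 lost it without at least 1 array, and 2 were lower without control 4 h replicate 2. Cryab, a small heat shock protein like Hspb1, had 333.4 and 384.2 in BafA-treated cells and 1183 and 967.9 in control cells at 24 h, against 1244 to 1426 at 4 h (-1.72, adjusted p = 6.3e-05). Hspa8, Hsp90aa1 and Hsp90ab1, the large chaperones, had 0.02, 0.11 and 0.10 and did not pass the test.

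Of 37 lysosomal hydrolases and membrane proteins, 2 had a higher and 5 a lower effect at 24 h, with a median of -0.06. The share called, 18.9%, was near the 18.1% of all named genes. The effect at 4 h was called for 2. Asah1, acid ceramidase, had 1980 and 2066 with BafA and 998.5 and 1082 without it at 24 h, and 734.9 and 712.1 with BafA and 649.8 and 604.5 without it at 4 h (difference 0.75, adjusted p = 0.0052). Cln3, a lysosomal membrane protein, and Glb1, a galactosidase, had differences of -0.91 and -0.82, and the calls of Ctsh, Ctso, Ctsl and Lamp2 were each lost without at least 1 array. Lamp1, Ctsb and Ctsd had -0.24, -0.13 and -0.06 and did not pass.

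Subunits of the V-ATPase, the pump that BafA blocks, had 4 higher and 2 lower effects of 18, with a median of 0.34. Atp6v0a2 had 2062 and 2564 in BafA-treated cells and 6421 and 7635 in control cells at 24 h, against 3583 to 4126 on the 4 arrays of 4 h (-1.53, adjusted p = 0.0002). Atp6v0a1, which encodes another form of the same subunit, had 179.8 and 177.6 in BafA-treated cells and 94.4 and 91.8 in control cells at 24 h, against 55.8 to 66.7 at 4 h (0.99). The calls of the other 4 subunits were lost without at least 1 array, and within the 6 arrays of 1 scan setting 1 subunit was higher and 2 were lower. Of 31 autophagy genes and MiT/TFE factors 3 had a higher effect and 0 a lower one (9.68% called, against 18.1% of all named genes). Rragd, a RAG GTPase, was the one that kept its call without any 1 array (1.22), with movement in control cells alone. Tfeb (-0.57) did not pass the test.

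Cytosolic ribosomal proteins had 13 higher effects and 1 lower one in 30 genes, with a median of 0.50 and small differences, and 5 higher without BafA 24 h replicate 2. The differences were 0.66 for Rpl4, 0.66 for Rpl8 and 0.68 for Rps4x. Within the 6 arrays of 1 scan setting 6 were higher and 0 lower, and several of these genes have near-identical copies that a probe may share. Genes of the respiratory chain and ATP synthase had 0 higher and 6 lower effects of 46 (median -0.29), or 13.0% lower against 9.24% of all named genes. The count of lower effects was not stable. It was 18 with quantile normalization, 10 without control 24 h replicate 2, 1 without BafA 24 h replicate 1 and 0 within the 6 arrays. Atp5o, the 1 of them that kept its call without any 1 array, had 284.2 and 333.9 in BafA-treated cells and 473.7 and 475.4 in control cells at 24 h, and 244 to 288 at 4 h (-0.77). Of 28 proteasome subunits 1 was higher (3.57%, against 8.82% of all named genes).

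Tfrc, the transferrin receptor, had 802.7 and 790.5 with BafA and 169.4 and 150.4 without it at 24 h, and 154 and 152 with BafA and 93.6 and 93.1 without it at 4 h. Its effects of 2.32 and 0.71 were both called and differed by 1.61 (adjusted p = 4.7e-05). Hfe, which binds that receptor, moved apart (-1.80), and Heph, a ferroxidase, was lower with BafA at 24 h (-1.46, or -0.30 with a pseudocount of 25), within counts of 2 higher and 3 lower of 15 iron genes. The antioxidant and metallothionein list had 5 higher and 4 lower effects of 20, led by Gclc (1.12), which makes glutathione, and Mt3 (-0.81) and Mt2 (-0.71), and within the 6 arrays 1 was higher and 3 lower, and 1 was higher without control 4 h replicate 1. Of 21 clock and glucocorticoid-responsive genes 3 were higher and 1 was lower, each with a call that was lost without at least 1 array. The share called in that last list, 19.0%, was near the 18.1% of all named genes.

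Markers of cell types moved beside these groups. Of 12 markers of astrocytes, which quiescent stem cells share, 7 had a lower and 1 a higher effect at 24 h (median -1.0). Their summed signal was 41245.4 and 40513.3 in BafA-treated cells and 73274.2 and 68609.0 in control cells at 24 h, and 58905.2 and 55435.8 in BafA-treated cells and 66701.9 and 63616.1 in control cells at 4 h. Gfap, the filament protein of astrocytes, had 191.5 and 229.4 with BafA at 24 h and 711.5 to 1092 on the other 6 arrays (-2.12, adjusted p = 6.7e-05). The stem cell markers Nes and Prom1 went in opposite directions (2.17 and -1.07), as part of 2 higher and 2 lower of 9.

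Of 7 neuronal markers, 3 had a lower effect (Tubb3 -2.17, Dcx -2.03 and Stmn2 -1.74, with Dcx and Stmn2 at -0.98 and -0.87 with a pseudocount of 25) and 2 a higher one, and their summed signal was 168.5 and 169.4 in BafA-treated cells and 530.7 and 635.6 in control cells at 24 h, against 250.5 to 284.5 at 4 h. Of 7 markers of the oligodendrocyte lineage 1 was higher (Olig2, 0.90) and 1 lower. They summed to 5064.3 and 4598.7 in BafA-treated cells and 3702.5 and 3211.4 in control cells at 24 h, and to 559.3 to 883.9 at 4 h. The median log2 change with time over the 7 markers was 0.05 in BafA-treated and 0.17 in control cells. The rise of the sums was thus not that of most members. Of 8 markers of microglia, 5 lay below the median signal of 25 on every array, among them Cx3cr1, P2ry12 and Trem2. Cd68, a lysosomal membrane protein that is used as a marker of microglia, was the 1 that changed, with 1014.7 and 1179.3 in BafA-treated cells and 126 and 190 in control cells at 24 h (2.31). Markers of endothelial, mural and fibroblast cells had 0 higher and 3 lower effects of 8 (1 lower without control 4 h replicate 1) and summed to 70.4 and 69.2 in BafA-treated cells and 105.3 and 129.4 in control cells at 24 h, and to 66.4 to 73.5 at 4 h. Of this last list, Cdh5, Col3a1, Dcn, Des, Lum and Rgs5 lay below the median signal of 25 on every array. With a pseudocount of 25, 1 of its members was lower, and Dcn differed by -0.19 in place of -1.72. In the bulk RNA of a culture, fewer cells of a kind and less RNA per cell cannot be told apart, and the part of all these cell type markers in the other results was not tested.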

How the data were processed

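RNA of qNSCs was labelled with Cy5 and hybridised to 8 Toray 3D-Gene arrays, in 1 colour with 1 sample per array. The deposited table holds signal intensity on a linear scale, which the authors scaled to the median of each array; each array has a median of 25, and from the values the mean of the blank spots had been subtracted. The authors' scanner outputs hold the unnormalised intensity of each spot and were used for 1 alternative, for control spots and for the scan setting. Their software is not given in the sources used here. The precision is limited by the number of arrays, 2 in each group.

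Signals were taken as log2 with no pseudocount, probes lacking a value on 1 or more arrays were left out, and limma 3.58.1 (R 4.3.3; lmFit, contrasts.fit, eBayes with trend) was fitted to the 4 groups of all 8 arrays, with 4 residual and 7.47 prior degrees of freedom. P-values were adjusted by Benjamini-Hochberg over 20473 probes with a threshold of 0.05. With 2 arrays in each of 2 groups, as for BafA and control at 1 time, the smallest p that exact permutation allows is 0.33. That value is not the limit for the difference between the effects, which uses 4 groups. Of 23473 probes, 16631 have 1 gene symbol and 6842 have none, and 3947 symbols were updated. For the 191 genes with several probes tested, the probe with the highest mean log2 signal stands for the gene. In 40 of these genes some probes were called and others not, and in 1 the probes were called in opposite directions. Named genes were those with the largest differences, in each direction, in each class of movement and course, among genes with a group mean of at least 100 and single-array differences that do not overlap, plus up to 4 members of each gene list and members that a sentence needed. The members and lists were chosen with earlier results of these data known.

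The alternatives were normexp background correction of the scanner intensities, quantile normalization, a pseudocount of 25, a filter on mean signal, eBayes without trend, no eBayes, the scan setting as a block, the 6 arrays of 1 setting, the replicate number as a block, and each array left out. The fit was tested on simulated data over 20473 probes, of which 200 were changed. It called 1 of 67 probes changed 1.5-fold, 39 of 67 changed 2-fold and 62 of 66 changed 4-fold, with 3 false calls. In the data 16.8% of probes were called, so these rates are those of the simulation alone.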

Additional observations from a re-analysis of the deposited data

Results flagged for a closer look

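The BafA effect differed between 24 h and 4 h for 1733 probes that were higher and 1711 that were lower at 24 h, by the test of the difference itself. Egln3 (3.64), Nr4a1 (-3.49), Polm (-3.10), Fam102a (-2.67) and Fbxo32 (-2.59) were singled out because their BafA effect passed at both times with opposite signs (difference of the log2 effects).

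Positive control spots of type 3 on the arrays, which belong to no gene of the comparison, gave a difference of 0.50 between the log2 effects, with an effect of 0.74 at 24 h and 0.24 at 4 h. Those of type 2 gave -0.22 at 24 h and -0.07 at 4 h, a difference of -0.15. Negative control spots of types 1, 2, 3 and 4 gave differences of -0.18, -0.57, -0.56 and -0.47. The effects were -0.10 at 24 h and 0.48 at 4 h for type 2, -0.35 and 0.20 for type 3 and -0.33 and 0.14 for type 4. The part of these spots in the other results was not tested.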

How the results depend on the processing

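Of 1733 higher and 1711 lower probes, 653 and 637 passed without eBayes, where 490 moved in BafA-treated cells alone (1340 with eBayes), 208 in control cells alone (745), 223 in opposite directions (403) and 369 in the same direction (909), and 1238 had an effect at 24 h alone (3133). Within the 6 arrays of 1 scan setting 417 moved in control cells alone, and 1248 had a higher and 1289 a lower effect. With 1 array left out, the counts were 1046 to 1821 higher, 1138 to 1893 lower, 870 to 1546 for BafA-treated cells alone, 448 to 782 for control cells alone, 268 to 440 for opposite and 548 to 886 for the same direction, and 2132 to 3298 with an effect at 24 h alone. The count of higher effects was lowest without BafA 24 h replicate 2 (1046) and 1064 without BafA 4 h replicate 1, that of lower effects was lowest without BafA 4 h replicate 2 (1138), and those of control cells alone (448) and of opposite directions (268) without control 4 h replicate 1. With the replicate number as a block, 1986 probes were higher and 1942 lower, and 3421 of the 3444 were shared. With the scan setting as a block, 2102 were higher and 2058 lower, and 3441 were shared. Each control group has 1 array of the other setting, so that block alters the spread and not the difference itself. Deviations of arrays with the same number correlated at 0.03 to 0.20 over all probes. Over probes with a geometric mean signal of at least 25 the correlations were 0.0006 to 0.26. All were positive but low, and the numbers were not taken to pair the samples. Of 2301 values of 136 named genes under the alternatives, 2042 kept their call, 259 lost it and 0 changed sign. The cause was not tested. A sign could change only with normexp, quantile normalization or a pseudocount. The other alternatives keep the difference itself or leave out arrays, and the single-array differences of all called genes do not overlap. The count of 0 for these therefore says nothing on stability. In the simulation 1 of 67 changes of 1.5-fold was called. Only 200 probes were changed there, against 16.8% of probes called in the data. The adjusted threshold depends on that share, so the rate at which such changes are found in the data was not measured.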
